A study of Mus musculus with 12 samples.

Results

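Chromatin accessibility was examined at 8 genes that encode naive pluripotency factors, *Nr5a2*, *Nr0b1*, *Tbx3*, *Tfcp2l1*, *Prdm14*, *Zfp42*, *Sall4* and *Utf1*. Peaks were assigned to a gene if they overlapped its annotated body (GENCODE M21, GRCm38) extended by 20 kb on each side. This gave 63 of the 91354 peaks of the BGI peak set and 58 of the 87027 peaks of the Illumina peak set. The cells were mouse embryonic fibroblasts (MEFs), sorted as Thy1+ cells, and embryonic stem cells (mESCs), selected by sorting for Thy1-/Ssea1+/Epcam+, all on a C57/Bl6 background and with no treatment, time point or age given in the labels. Omni-ATAC-seq, used to measure accessibility, relies on the Tn5 transposase to cut open DNA and attach sequencing adapters there. MEF libraries 1, 2 and 4 and mESC libraries 1, 3 and 5 were each sequenced on both platforms (BGI DNBSEQ-G400, Illumina HiSeqX10), so that 6 libraries gave 12 samples in 4 groups of 3. The study describes the 3 libraries of a cell type as biological replicates, and their p-values measure the spread between these libraries.

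Naive pluripotency is the state of the pre-implantation epiblast, which mESCs keep in culture, and it is held by a network of transcription factors around OCT4, SOX2 and NANOG. The outer members studied here fall into several classes. NR5A2 and NR0B1 are orphan nuclear receptors, NR5A2 an activator that can maintain *Pou5f1* and NR0B1 a corepressor without a classical DNA-binding domain. TFCP2L1, of the grainyhead/CP2 family, and TBX3, a T-box factor, act downstream of LIF and related signals. PRDM14 is a PR-domain protein that restrains FGF signalling and DNA methylation, ZFP42 (REX1) and SALL4 are zinc finger proteins, and UTF1 is a chromatin-associated protein whose gene is a known target of OCT4 and SOX2 through an enhancer 3′ of it. Fibroblasts do not use this network, but TBX3 and its relatives also pattern limb and other mesenchyme.

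All values below are reads in a peak scaled to 1000000 reads in all peaks of the peak set (CPM). The samples held 20085886 to 21662775 reads in peaks in MEFs and 15860985 to 16911482 in mESCs on BGI, and 20127546 to 21441767 and 15996202 to 16958488 on Illumina. Promoter peaks of 3 of 4 mESC markers (*Pou5f1*, *Nanog*, *Epcam*) were higher in mESCs on both platforms, whereas *Fut4*, which encodes a fucosyltransferase of the SSEA1 epitope, was lower. Of 6 MEF markers, 5 were lower in mESCs and *Pdgfra* did not pass the test. The summed level of the MEF markers was 194.7 CPM in MEFs and 68.6 CPM in mESCs on BGI. Among markers of other cell types, both blood genes had no promoter peak, and the single endothelial promoter peak (*Kdr*, 14.5 and 14.2 CPM on BGI) did not pass the test. By window total, however, *Kdr* (66.7 CPM in MEFs and 18.7 CPM in mESCs on BGI), *Cdh5* (15.9 and 8.07), *Ptprc* (13.5 and 3.72) and *Spi1* (160.2 and 137.2) were lower in mESCs on both platforms. Of 3 extraembryonic endoderm markers *Gata4* and *Sox17* were higher in mESCs and *Gata6* lower, with a summed level of 47.6 CPM in MEFs and 56.5 CPM in mESCs on BGI. Of 3 trophoblast markers *Eomes* was higher, *Elf5* was not called and *Cdx2* had no promoter peak (summed 13.6 and 25.1 CPM), while the *Cdx2* window was higher in mESCs on both platforms (55.8 and 88.0 CPM on BGI). The part of other cell types in the members' values was not tested. In bulk samples, fewer cells with an open site and less opening per cell cannot be told apart.

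Sequences of regions to which the results below return are shown first, in lower case, with motif matches in capitals. The reference promoters span 250 bases before to 50 bases after a transcription start and come from RefSeq (GRCm38.p6), which gave sequences for 5 of the 8 genes in the table used here. *Zfp42* had the promoter peak with the largest rise in mESCs, *Tfcp2l1* a promoter with adjacent KLF-type matches, and *Nr0b1* its only peak at the promoter. The 4 peak sequences are the middle 300 bases of BGI peaks on the plus strand of GRCm38. Those at *Tfcp2l1* and *Utf1* were the strongest rises away from a promoter at each gene, and those at *Nr5a2* and *Sall4* the strongest falls. The *Zfp42* promoter lies on the minus strand at chr8:43306960-43307259, and its capitals mark an octamer (ATGCAAAT, here on the opposite strand) and a KLF match (CCACNCCC). The *Tfcp2l1* promoter lies on the plus strand at chr1:118627695-118627994, with a pair of KLF matches. The *Nr0b1* promoter lies on the plus strand at chrX:86191525-86191824 and held none of the motifs searched.
Zfp42 promoter: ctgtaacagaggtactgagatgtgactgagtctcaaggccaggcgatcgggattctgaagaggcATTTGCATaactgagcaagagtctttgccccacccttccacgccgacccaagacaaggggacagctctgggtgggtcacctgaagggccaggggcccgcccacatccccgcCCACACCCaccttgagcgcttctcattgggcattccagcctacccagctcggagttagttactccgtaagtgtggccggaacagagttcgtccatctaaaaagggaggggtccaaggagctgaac
Tfcp2l1 promoter: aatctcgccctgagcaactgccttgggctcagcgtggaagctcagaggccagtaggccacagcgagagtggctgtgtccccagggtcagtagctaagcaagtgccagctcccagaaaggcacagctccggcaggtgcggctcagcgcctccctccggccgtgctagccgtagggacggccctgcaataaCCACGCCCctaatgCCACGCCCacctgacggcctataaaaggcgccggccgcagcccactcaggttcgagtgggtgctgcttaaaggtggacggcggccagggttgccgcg
Nr0b1 promoter: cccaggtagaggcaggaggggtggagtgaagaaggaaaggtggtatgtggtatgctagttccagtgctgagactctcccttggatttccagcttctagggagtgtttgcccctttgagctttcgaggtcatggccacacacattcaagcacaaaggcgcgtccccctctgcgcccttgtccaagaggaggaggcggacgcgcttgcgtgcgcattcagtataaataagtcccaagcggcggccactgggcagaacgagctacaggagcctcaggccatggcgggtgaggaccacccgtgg

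The *Tfcp2l1* intronic sequence (chr1:118648022-118648321) held a KLF match and a CCAG pair, which is the TFCP2L1 motif as searched (CCAG, 6 bases, CCAG), here on the opposite strand. The sequence downstream of *Utf1* (chr7:139945528-139945827) held a SOX match (CATTGTT, on the opposite strand) and an ESRRB and NR5A match (AAGGTCA). The sequences inside *Nr5a2* (chr1:136915453-136915752) and downstream of *Sall4* (chr2:168728105-168728404) each held an AP-1 match (TGANTCA) and a CCAG pair.
Tfcp2l1 +20.2 kb: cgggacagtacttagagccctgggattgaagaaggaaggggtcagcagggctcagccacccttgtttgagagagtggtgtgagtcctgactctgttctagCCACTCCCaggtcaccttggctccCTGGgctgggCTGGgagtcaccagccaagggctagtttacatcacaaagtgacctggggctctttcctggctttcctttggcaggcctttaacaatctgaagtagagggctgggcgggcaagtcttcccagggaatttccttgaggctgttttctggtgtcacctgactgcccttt
Utf1 +1.9 kb: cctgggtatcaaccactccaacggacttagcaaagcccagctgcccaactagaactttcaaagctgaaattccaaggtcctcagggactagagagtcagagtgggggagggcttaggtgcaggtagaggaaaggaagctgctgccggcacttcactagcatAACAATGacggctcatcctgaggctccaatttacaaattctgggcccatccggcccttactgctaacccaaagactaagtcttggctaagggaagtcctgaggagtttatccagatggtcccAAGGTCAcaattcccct
Nr5a2 +44.8 kb: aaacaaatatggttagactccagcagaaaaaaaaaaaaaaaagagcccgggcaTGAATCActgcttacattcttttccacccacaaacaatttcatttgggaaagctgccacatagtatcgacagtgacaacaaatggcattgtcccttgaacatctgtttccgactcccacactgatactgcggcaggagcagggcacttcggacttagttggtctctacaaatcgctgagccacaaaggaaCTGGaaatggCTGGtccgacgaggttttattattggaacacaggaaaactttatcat
Sall4 +39.7 kb: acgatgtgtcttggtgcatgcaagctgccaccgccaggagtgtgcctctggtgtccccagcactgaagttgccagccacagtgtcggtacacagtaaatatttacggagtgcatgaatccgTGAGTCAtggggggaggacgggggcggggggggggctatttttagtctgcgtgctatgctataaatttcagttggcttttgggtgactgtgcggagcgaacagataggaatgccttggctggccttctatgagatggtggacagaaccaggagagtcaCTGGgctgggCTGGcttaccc

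Most peaks at the 8 genes were more open in mESCs. On BGI, 53 of 63 were higher in mESCs, 6 were lower and 4 did not pass the test (edgeR quasi-likelihood F test, Benjamini-Hochberg adjusted p under 0.05 over all peaks), while 40.9% of all BGI peaks were called higher and 43.2% lower. On Illumina, 49 of 58 were higher, 7 lower and 2 did not pass, against 42.1% called higher and 42.4% called lower among all Illumina peaks. The median log2 fold change (mESC over MEF) of the members was 2.25 on BGI and 2.26 on Illumina, beside -0.08 and -0.03 over all peaks. The 3 mESC libraries all lay above the 3 MEF libraries at 54 BGI peaks and all below at 6, where 42.9% and 42.2% of all peaks separated in these directions. On Illumina the counts were 49 above and 7 below, with 43.7% and 41.8% of all peaks. Of the BGI peaks, 52 overlapped only the mESC list of reproducible peaks, which was 82.5% of the members and 36.4% of all peaks. Peaks entered the set by being reproducible in either cell type. A higher call at a peak on the mESC list alone was therefore partly fixed beforehand, and the list overlap is not a separate result.

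Both promoters and peaks away from them were mostly higher in mESCs. Of 46 BGI peaks that were not at a promoter of the member itself, 39 were higher and 3 lower, with a median log2 fold change of 2.85, and of 17 own promoter peaks 14 were higher and 3 lower, with a median of 2.01. Among all 29802 BGI peaks at a promoter of any gene, 31.3% were called higher and 41.0% lower, with a median of -0.13. The 13 BGI member peaks annotated as intergenic were all called higher, where 45.5% of all 26770 intergenic peaks were. All 13 overlapped only the mESC list, as did 42.0% of all intergenic peaks, so their direction was partly fixed by that selection. All 3 lower promoter peaks belonged to *Tbx3*. In MEFs, 17 of the 63 BGI peaks had a mean below 1 CPM, and in mESCs 1 did. In mESCs 11 reached 20 CPM, and in MEFs 1, the *Tbx3* promoter.

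**Figure D1:**
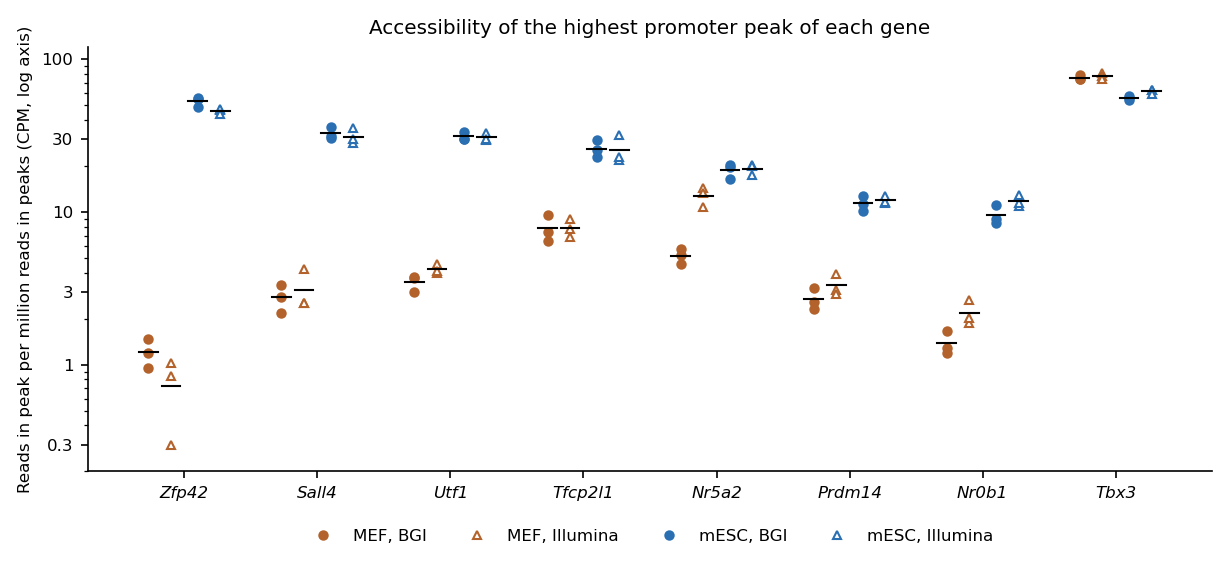
CPM of the highest promoter peak of each gene (log axis) in the 3 MEF and 3 mESC libraries on BGI (filled circles) and Illumina (open triangles), with black bars at the group means. mESC libraries sit above MEF libraries at 7 genes, from *Zfp42* (1.21 against 53.1 CPM on BGI) to *Nr0b1* (1.38 against 9.50), and below them at *Tbx3* (75.5 against 55.3).

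Among promoter peaks (within 1 kb of an annotated start of the gene, the highest taken), the order in mESCs on BGI was *Tbx3*, *Zfp42*, *Sall4*, *Utf1*, *Tfcp2l1*, *Nr5a2*, *Prdm14* and *Nr0b1*. The library ranges of *Tbx3* and *Zfp42*, of *Sall4* and *Utf1*, and of *Prdm14* and *Nr0b1* overlapped, so these neighbours could not be ordered. On Illumina the order was the same, with *Tbx3* clear of *Zfp42* and *Utf1* also overlapping *Tfcp2l1*. All peaks were 502 bp wide, so width did not differ between genes, but levels could depend on where a peak was placed, as at *Nr5a2* below. The order is that of the peaks as placed. In MEFs *Tbx3* was first on both platforms and *Zfp42* last, although on BGI the ranges of *Zfp42* and *Nr0b1* overlapped.

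*Zfp42*, which encodes the naive marker REX1, went from almost closed to one of the most open promoters of the group. Its promoter peak (chr8:43306878-43307379), which overlaps the sequence printed above, held 1.48, 0.944 and 1.19 CPM in MEFs 1, 2 and 4 and 54.9, 56.0 and 48.3 CPM in mESCs 1, 3 and 5 on BGI. No MEF library came near any mESC library. The log2 fold change was 5.38 (SE 0.16, adjusted p = 5.60e-14 by the edgeR quasi-likelihood F test). On Illumina the same promoter had 1.03, 0.298 and 0.837 CPM in MEFs and 46.8, 47.4 and 43.6 CPM in mESCs, with a log2 fold change of 5.92 (SE 0.20). A second peak, 1.1 kb into the gene, rose from 0.486 ± 0.102 to 15.4 ± 0.876 CPM (mean ± SD, n = 3), and a peak over an exon 11 kb from the start rose from 0.564 ± 0.0759 to 8.94 ± 1.26 CPM. The authors' calls listed no summit in the *Zfp42* window in any MEF sample on either platform, whereas each mESC sample had 7 or 8 summits with a -log10 p of at least 10.

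*Sall4* encodes a zinc finger factor of early embryo and germ line. The peak 0.7 kb inside its start (chr2:168767003-168767504) held 2.17, 2.78 and 3.34 CPM in MEFs and 30.4, 31.5 and 36.0 CPM in mESCs on BGI, a log2 fold change of 3.50 (SE 0.16, adjusted p = 2.38e-12). Groups were far apart on both platforms, and the log2 fold change on Illumina was 3.28 (SE 0.17). The peak also lies within 1 kb of a start of the predicted gene *Gm14261*, and reads without strand cannot be divided between the genes. Other *Sall4* peaks that rose included one at 22.7 kb, between the genes, from 0.607 ± 0.264 to 8.40 ± 1.19 CPM, and an exonic one at 6.6 kb, from 1.34 ± 0.189 to 12.6 ± 1.80 CPM.

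Further downstream the *Sall4* window runs into *Atp9a*, which encodes a phospholipid flippase. There the peak at 39.7 kb, in an intron, was open in MEFs with 6.09, 7.06 and 5.78 CPM and nearly closed in mESCs with 1.51, 0.887 and 1.24 CPM on BGI. It was the one *Sall4* window peak called lower on BGI (log2 fold change -2.44, SE 0.28, adjusted p = 2.55e-07). A peak at an *Atp9a* start, 25.6 kb downstream, had 10.9 ± 2.06 CPM in MEFs and 9.86 ± 0.335 in mESCs on BGI, with overlapping groups and an adjusted p of 0.251. Its Illumina counterpart, placed 244 bp away, held 17.4 ± 3.31 and 11.5 ± 0.662 CPM and was called lower (log2 fold change -0.64, SE 0.14, adjusted p = 5.14e-04). Over the BGI placement the Illumina libraries held 12.9 ± 2.44 CPM in MEFs and 11.6 ± 0.353 in mESCs, and over the Illumina placement the BGI libraries held 9.80 ± 1.30 and 7.22 ± 0.283 CPM. This pair was the only matched peak at the 8 genes whose call differed between the platforms' peak sets.

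*Utf1* is a compact gene of 1.3 kb with regulatory DNA close by. Its promoter peak (chr7:139943524-139944025) held 3.0, 3.68 and 3.73 CPM in MEFs and 30.1, 33.5 and 30.1 CPM in mESCs on BGI, a log2 fold change of 3.10 (SE 0.14, adjusted p = 3.14e-12). The peak 1.9 kb from the start, just past the gene's end (chr7:139945427-139945928), whose middle is printed above with its SOX and ESRRB and NR5A matches, was nearly as open as the promoter. It held 1.38, 1.34 and 2.24 CPM in MEFs and 28.5, 30.5 and 28.1 CPM in mESCs on BGI. mESC libraries exceeded MEF libraries 17.5-fold in the mean here and 9.0-fold at the promoter. On Illumina this downstream peak had the larger ratio as well, 22.1 against 7.31. In MEFs neither region had a called summit in any of the 6 samples.

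Peaks 6.6 and 7.5 kb from the *Utf1* start lie at *Gm16201*. The first was already open in MEFs (15.5, 14.2 and 18.7 CPM on BGI) and rose to 30.3, 29.7 and 28.9 CPM in mESCs, with a log2 fold change of 0.81 (SE 0.12). The second had overlapping groups and no call on either platform (adjusted p 0.298 on BGI and 0.453 on Illumina by edgeR).

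*Tfcp2l1* had the most peaks called higher in mESCs of the 8 genes on each platform. Of 11 peaks on each platform, 10 were called higher and 1 lower, and the highest mESC level was not at the promoter. The intronic peak 20.2 kb from the start (chr1:118647921-118648422), which is printed above with its KLF and CCAG pair matches, held 0.923, 1.09 and 0.797 CPM in MEFs and 64.1, 57.3 and 58.0 CPM in mESCs on BGI. This was the largest rise of any member peak on either platform, with log2 fold changes of 5.92 (SE 0.15, adjusted p = 2.65e-14) on BGI and 6.10 (SE 0.19, adjusted p = 5.26e-14) on Illumina. The promoter peak (chr1:118627628-118628129) was partly open in MEFs, with 7.43, 9.59 and 6.47 CPM, and held 22.7, 29.5 and 25.4 CPM in mESCs. Its log2 fold change was 1.66 (SE 0.16, adjusted p = 2.47e-08), so the intronic peak was the lower of the pair in MEFs and the higher in mESCs.

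Other *Tfcp2l1* regions were strong in mESCs as well. A peak 62.1 kb from the start, past the gene's end (chr1:118689844-118690345), held 2.17, 3.83 and 1.84 CPM in MEFs and 49.3, 51.3 and 36.8 CPM in mESCs on BGI. Peaks at 14.9 and 18.0 kb, in introns, rose from 1.14 ± 0.409 to 21.9 ± 3.54 CPM and from 0.697 ± 0.455 to 14.1 ± 0.991 CPM. mESC library 5 was the lowest of the 3 at the 62.1 kb peak on both platforms. One intronic peak, at 33.3 kb, went the other way, with 7.71, 8.75 and 6.77 CPM in MEFs and 2.14, 2.37 and 1.99 CPM in mESCs (log2 fold change -1.90, SE 0.23, adjusted p = 5.04e-07).

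*Nr5a2*, which encodes the orphan receptor LRH-1, spans 117.9 kb but held only 4 peaks on BGI and 5 on Illumina. It has 6 annotated starts, and both own promoter peaks lie at internal ones. At 7.3 kb from the outermost start (chr1:136952862-136953363), MEFs held 4.34, 4.13 and 6.17 CPM and mESCs 16.5, 18.0 and 19.8 CPM on BGI. The log2 fold change was 1.82 (SE 0.17, adjusted p = 1.95e-08), and 1.79 (SE 0.16) at the matched Illumina peak. The other internal promoter region was covered by peaks that the platforms' peak sets placed 312 bp apart, and the values followed the placement. The BGI peak had means of 5.17 CPM in MEFs and 18.8 in mESCs (log2 fold change 1.80), and the Illumina peak 12.8 and 19.2 CPM (log2 fold change 0.54).
Read over the BGI placement, the Illumina libraries gave 5.58 ± 1.18 CPM in MEFs and 19.3 ± 0.658 in mESCs, and over the Illumina placement the BGI libraries gave 10.4 ± 2.33 and 16.0 ± 0.966 CPM. The higher MEF level was thus seen on both platforms at the same place.

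The peak 44.8 kb into *Nr5a2* (chr1:136915352-136915853), whose middle is printed above with its AP-1 match, was the strongest fall among the members. It held 5.82, 5.72 and 4.88 CPM in MEFs and 0.694, 0.355 and 0.373 CPM in mESCs on BGI. The log2 fold change was -3.59 (SE 0.35, adjusted p = 3.09e-08) on BGI and -3.26 (SE 0.43, adjusted p = 1.47e-06) on Illumina. Summits were called there in all 6 MEF samples and in no mESC sample.

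*Nr0b1*, on the X chromosome, encodes the corepressor DAX1 and had a single peak. On BGI it held 1.66, 1.19 and 1.29 CPM in MEFs and 8.45, 11.1 and 8.95 CPM in mESCs, a log2 fold change of 2.71 (SE 0.24, adjusted p = 1.17e-08). On Illumina it held 1.87, 2.63 and 2.02 CPM and 10.9, 13.0 and 11.4 CPM, a log2 fold change of 2.39 (SE 0.20). Its mean was the lowest of the 8 promoters in mESCs on both platforms, and its library range overlapped that of *Prdm14* on each. Weak summits were called in this window in all 6 MEF samples, within the peak on Illumina (highest -log10 p from 3.4 to 6.0) and outside it on BGI (4.5 to 5.9). The sex of the cells is not in the labels.

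*Prdm14* had low promoter accessibility even in mESCs. The peak at its start (chr1:13126894-13127395) held 2.31, 2.58 and 3.19 CPM in MEFs and 11.2, 12.8 and 10.1 CPM in mESCs on BGI, a log2 fold change of 2.01 (SE 0.20, adjusted p = 5.29e-08). The highest mESC level of its window was 23.1 kb downstream, with 5.68, 7.06 and 6.37 CPM in MEFs and 17.7, 13.2 and 17.7 CPM in mESCs. A peak 32.4 kb downstream was near 0 in MEFs, with 0.323, 0.497 and 0.349 CPM, and held 8.83, 13.7 and 9.88 CPM in mESCs (log2 fold change 4.71, SE 0.31, adjusted p = 1.95e-10). All 9 BGI peaks and all 6 Illumina peaks of the window were higher in mESCs. The most distant upstream one, at 19.3 kb, lies at an annotated start of *Ncoa2*, which encodes a nuclear receptor coactivator.

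*Tbx3* differed from the other 7 genes. Its main promoter peak (chr5:119670322-119670823) was the most open member peak of all in MEFs, with 78.8, 73.6 and 74.1 CPM, and lower in mESCs, with 56.9, 55.3 and 53.6 CPM on BGI. The groups did not overlap on either platform, and the log2 fold change was -0.52 (SE 0.08, adjusted p = 1.43e-05) on BGI and -0.38 (SE 0.08, adjusted p = 2.06e-04) on Illumina. These falls lay between the quartiles of all promoter peaks (-0.61 and 0.61 on BGI, -0.58 and 0.58 on Illumina). Peaks 0.6 kb before and 0.9 kb after the start were lower in mESCs as well, with log2 fold changes of -1.15 (SE 0.15) and -0.86 (SE 0.19) on BGI. The main peak and the one after it also lie at starts of the antisense transcript *Tbx3os1*. The promoter was thus open in both cell types, with the highest mean of the 8 promoters in mESCs too.

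Most other peaks of the *Tbx3* window were higher in mESCs. The internal promoter peak at 9.7 kb held 4.57, 4.18 and 4.53 CPM in MEFs and 20.4, 18.0 and 18.9 CPM in mESCs on BGI (log2 fold change 2.04, SE 0.15, adjusted p = 9.43e-10). An intronic peak at 11.4 kb held 2.82, 2.53 and 3.04 CPM and 15.5, 11.9 and 12.8 CPM. Upstream, a peak at 9.9 kb rose from 0.882 ± 0.255 to 6.82 ± 0.593 CPM, the largest rise at the gene (log2 fold change 2.87, SE 0.29). In all, 9 of 14 BGI peaks and 8 of 12 Illumina peaks of the *Tbx3* window were called higher and 3 lower on each. The peak at 15.8 kb had overlapping groups, with 6.71 ± 1.43 and 6.77 ± 0.751 CPM on BGI and adjusted p of 0.807 and 0.880 on BGI and Illumina by edgeR. The peak at 20.6 kb, with 4.95 ± 1.11 and 6.94 ± 0.375 CPM on BGI, did not pass the test there either (adjusted p = 0.0672 by edgeR).

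**Figure D2:**
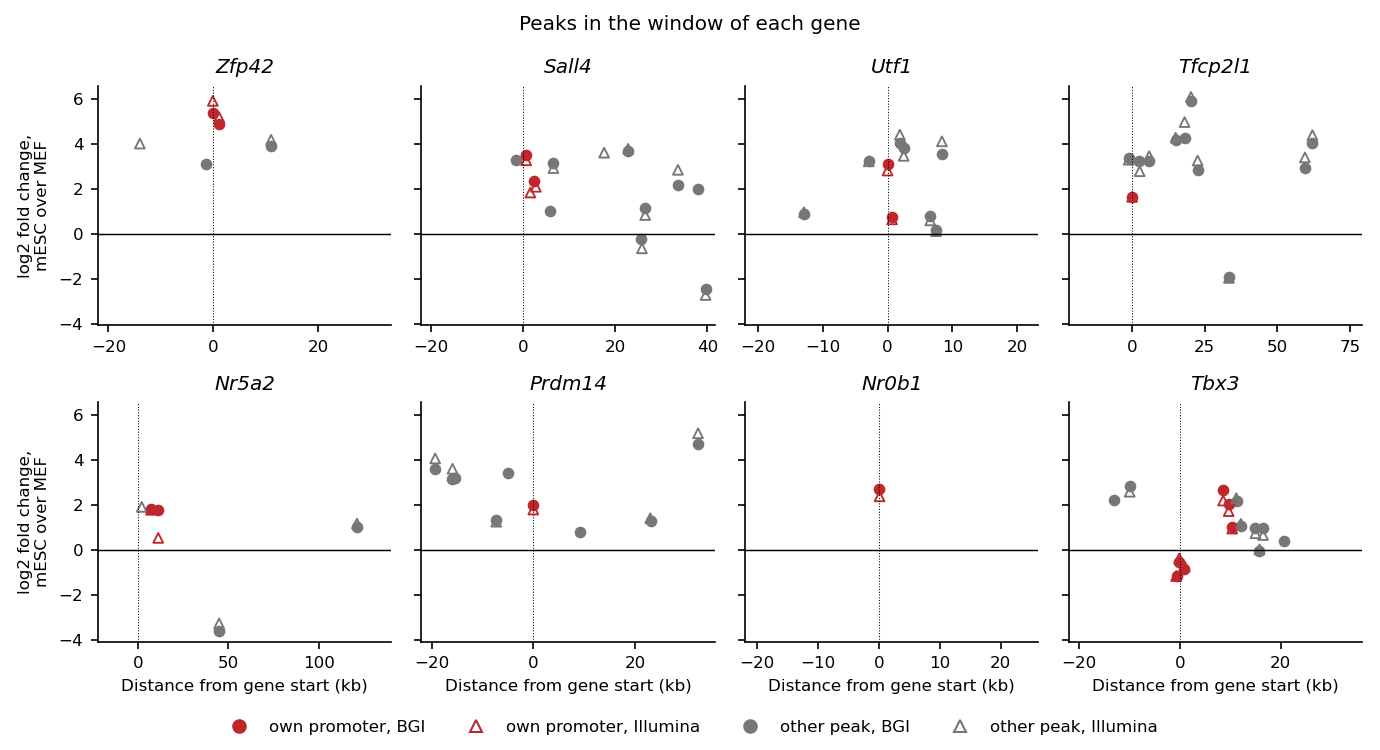
Log2 fold change (mESC over MEF) of every peak in each gene's window against its distance from the gene start in kb, positive along the direction of transcription; filled circles are BGI and open triangles Illumina, and red marks peaks at the gene's own promoters. Points lie above 0 at most positions, and those called lower on both platforms are the 3 peaks around the *Tbx3* start and single peaks of *Tfcp2l1* (33.3 kb), *Nr5a2* (44.8 kb) and *Sall4* (39.7 kb). Also below 0 are the *Sall4* peak at the *Atp9a* start (-0.20 on BGI, -0.64 on Illumina) and, on BGI, the *Tbx3* peak at 15.8 kb (-0.05).

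Summed over each window, accessibility was higher in mESCs for all 8 genes on both platforms. Over all protein-coding genes with a peak, 39.1% of windows were called higher and 39.2% lower on BGI, and 38.9% and 39.3% on Illumina. The *Zfp42* window rose most, from 2.91, 2.29 and 3.14 CPM in MEFs to 84.6, 84.0 and 78.1 CPM in mESCs on BGI, a log2 fold change of 4.82 (SE 0.12, adjusted p = 2.02e-20). *Tfcp2l1* followed with 22.8, 31.3 and 23.9 CPM against 223, 222 and 202 CPM, a log2 fold change of 2.99 (SE 0.09, adjusted p = 3.05e-19). *Nr0b1*, *Prdm14*, *Utf1*, *Sall4* and *Nr5a2* had log2 fold changes of 2.70, 2.11, 1.78, 1.59 and 1.17. When the authors' down-sampled depths served as library sizes, the windows of all genes called on BGI divided into 8616 higher and 5259 lower instead of 7167 and 7186, and on Illumina into 8490 and 5396 instead of 7120 and 7189, and the 8 members were still higher. Neighbouring genes share peaks, and a window total includes peaks at *Ncoa2*, *Atp9a*, *Gm16201* and the *Tbx3* antisense transcripts.

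The *Tbx3* total was the smallest difference, with 142, 131 and 145 CPM in MEFs and 181, 162 and 166 CPM in mESCs on BGI, a log2 fold change of 0.22 (SE 0.06, adjusted p = 0.00148). On Illumina it was 0.17 (SE 0.06, adjusted p = 0.00722). This call was lost when the window was limited to 5 kb around the gene (log2 fold change 0.11, adjusted p = 0.135 on BGI and 0.13, adjusted p = 0.0678 on Illumina). It was also lost on Illumina without MEF library 2 (adjusted p = 0.144), without MEF library 4 (0.0766) and without mESC library 3 (0.0767).

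**Figure D3:**
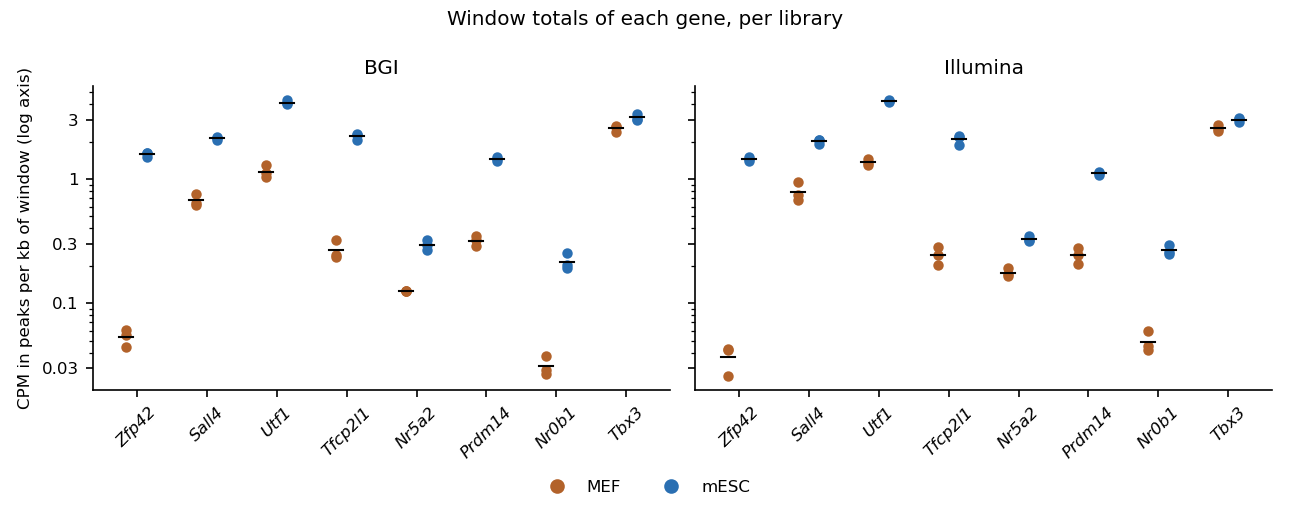
Summed CPM of all peaks in each gene's window, divided by the window's length in kb (log axis), for the 3 MEF and 3 mESC libraries on BGI (left) and Illumina (right), with black bars at the means. mESC libraries lie above MEF libraries at every gene, with the widest gap at *Zfp42* and the narrowest at *Tbx3*.

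Promoters of related genes were compared in lists. Of 12 other naive or core factors, 10 promoter peaks were higher in mESCs, 1 lower and 1 not called on each platform, with a median log2 fold change of 2.18 on BGI beside 2.36 for the 8 members, and 2.31 beside 2.10 on Illumina. *Esrrb*, *Tdgf1* and *Nanog* had BGI values of 6.12, 5.04 and 4.46. Window totals of these 12 factors were higher for 11 on each platform, with 1 lower on BGI and 1 not called on Illumina. Their median log2 fold changes were 1.68 and 1.71, beside 1.94 and 1.87 for the members. Paralogues of the members were divided. Of the 10 with a BGI promoter peak, 2 were higher (*Sall1*, log2 fold change 1.88, and *Tbx4*, 0.82), 5 lower and 3 not called, with a median of -0.39. On Illumina 4 of 11 were higher (*Nr0b2*, 3.35, *Sall1*, 1.60, *Tbx4*, 1.02, and *Nr5a1*, 0.51), 5 lower and 2 not called, with a median of -0.07. By window total 5 paralogues were higher, 4 lower and 2 not called on each platform. *Tfcp2* and *Yy1*, close relatives of *Tfcp2l1* and *Zfp42* that are expressed broadly, were open in both cell types and lower in mESCs, with 75.1 against 48.2 CPM and 63.4 against 42.0 CPM. *Tbx2*, the nearest relative of *Tbx3*, fell from 26.7 to 13.5 CPM. Formative or primed genes were divided, with 3 of 7 promoters higher (*Otx2*, *Zic2*, *Sox3*), 2 lower and 2 not called on BGI, and 3, 3 and 1 on Illumina. By window total 5 of these 7 genes were higher and 2 not called on BGI (median log2 fold change 0.94), and 4 were higher, 1 lower and 2 not called on Illumina (0.74).
Under the same fixed library sizes, 4 of the 10 paralogues were higher, 5 lower and 1 not called on BGI, and 4 of 7 formative or primed genes were higher and 1 lower. *Klf4*, the factor called lower among the other naive or core genes, lost that call on BGI with RLE size factors, with fixed library sizes and with DESeq2, and on Illumina with fixed library sizes. The members' promoters kept 7 higher and 1 lower under each of these scalings on both platforms.

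The promoters whose levels were most like each member's were found by the distance of log2(CPM + 1) over the 12 samples, among 14990 genes with a promoter peak on both platforms. For *Tbx3* these were *Prrc2a* and *Jkamp* (distances 0.20 and 0.24), which held 75.0 and 71.7 CPM in MEFs and 58.0 and 56.4 CPM in mESCs on BGI. The nearest to *Prdm14* were *Pde4c* and *Pou4f3* (0.46 and 0.52), to *Utf1* *Pef1* and *Tnk1* (0.57 and 0.60), to *Tfcp2l1* *Scn9a* and *Cartpt* (0.58 and 0.70) and to *Nr0b1* *Grhl2* and *Sox14* (0.65 and 0.82). *Sall4* had *Prr36* and *Dmc1* (0.80 and 0.92) and *Nr5a2* *Unc5a* and *Slc30a10* (0.80 and 0.88). For *Zfp42* they were *Nop58* and *Ssr2* (0.86 and 0.90), at annotated starts where MEFs held 1.01 and 0.90 CPM and mESCs 55.8 and 56.3 CPM on BGI. The 12 values come from 6 libraries, and the distance describes levels only.

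Motifs were searched as exact letters on both strands in the middle 300 bases of each peak. KLF matches were in 17 of 63 BGI member peaks, 27.0% against 18.0% of all peaks and 22.4% of all peaks called higher in mESCs. Among Illumina member peaks the share was 24.1%, against 18.0% of all. AP-1 matches were in 11.1% of BGI member peaks against 21.4% of all, 14.5% of those called higher and 31.8% of those called lower. Of the 7 such member peaks, those at *Nr5a2* (44.8 kb) and *Sall4* (39.7 kb) were called lower. Called higher were those at *Nr5a2* (121.0 kb), *Tbx3* (15.0 kb), *Tfcp2l1* (2.4 kb) and *Utf1* (-2.9 kb), and the *Tbx3* peak at 20.6 kb was not called. The octamer was in 1 member peak, at the *Zfp42* promoter, where 2.29% of all BGI peaks and 3.76% of those called higher had one. CCAG pairs were in 9.52% of member peaks and 5.21% of all, SOX matches in 7.94% and 4.07%, and ESRRB and NR5A matches in 6.35% and 5.92%. Of all BGI peaks called higher, 9.5% held an ESRRB and NR5A match. On Illumina SOX matches were in 5.17% of member peaks against 3.93% of all, and ESRRB and NR5A matches in 8.62% against 5.91%. T-box (AGGTGTGA) and PRDM14 (GGTCTCTAA) letters were in no member peak and in 1.11% and 0.211% of all. CTCF letters (AGGGGGC) were in 7.94% and 10.7%, and YY1 and ZFP42 letters (AAGATGGC) in 3.17% and 2.24% (5.17% and 2.33% on Illumina). Among 32851 RefSeq promoters of the length printed above, 1.74% held an octamer and 17.6% a KLF match. Peaks of the same gene lie close together, and these shares describe letters, not binding.

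The final comparison was between the platforms. By position, 52 BGI member peaks matched an Illumina member peak over at least 50% of their width, 51 of them with the same call, and the log2 fold changes differed by a median of 0.23 and at most 0.72. On the BGI peak set, 2 of 63 member peaks differed between BGI and Illumina in MEFs, both lower on BGI, while 4.9% of all peaks were called. DESeq2 gave an adjusted p for 25 of the 63 members and called none of these, with 8 members at an unadjusted p under 0.05 by each tool. The 2 peaks called by edgeR lay at the *Atp9a* start 26.5 kb from *Sall4* (log2 difference BGI minus Illumina -0.50, SE 0.14, adjusted p = 0.042) and at *Gm16201* 6.6 kb from *Utf1* (-0.38, SE 0.10, adjusted p = 0.042). Leaving out a library left 0 or 1 call, the latter without MEF library 4. With the library as a replicate block, 10 were called in MEFs, 1 higher and 9 lower on BGI, where 17.7% of all peaks were called. The replicate block with a GC offset left 4 of the 63 called and 8.12% of all peaks.

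In mESCs no member peak was called without the block, when 0.868% of all peaks were, and 1 member had an unadjusted p under 0.05 by edgeR and 2 by DESeq2, which gave an adjusted p for 22 members and called none of these. With the replicate block 4 were called, all higher on BGI, and 15.8% of all peaks were. They included the *Zfp42* promoter (log2 difference 0.27, SE 0.05) and the *Tfcp2l1* peak at 20.2 kb (0.23, SE 0.05). None of these higher calls was left with the replicate block and a GC offset, which gave 1 call, lower on BGI, and called 3.66% of all peaks. The median log2 difference between platforms over all peaks was 0.13 in mESCs and 0.03 in MEFs, on the same scale, and 0.11 and 0.14 with RLE size factors. No interaction between cell type and platform was called at a member peak by edgeR. It was called at 0.0% of all peaks, with 2386 of them and 2 members at an unadjusted p under 0.05 by edgeR and 0 peaks called by DESeq2 (0 members at an unadjusted p under 0.05), and at 0.386% with the replicate block, none of them at the 8 genes. With the block, 8 of the 63 members had an unadjusted p under 0.05, and the members' interaction terms ran from -0.62 to 0.52 on the log2 scale.

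**Figure D4:**
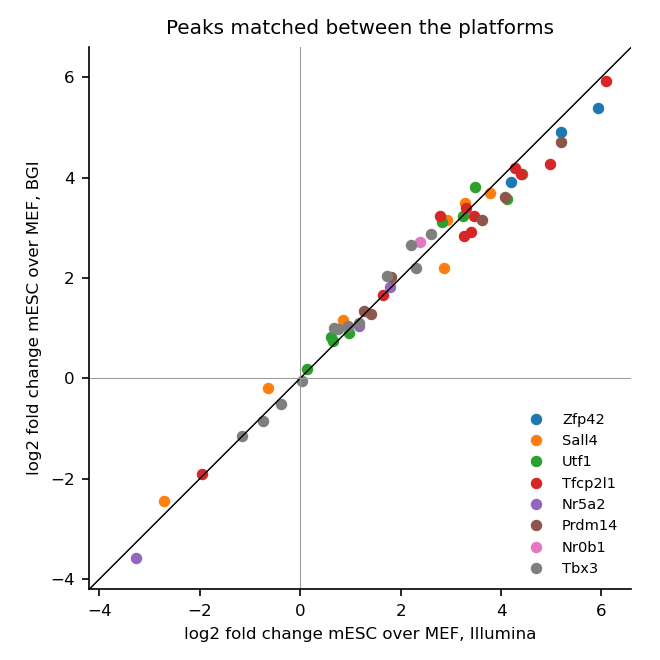
Log2 fold change (mESC over MEF) on BGI against that on Illumina for the 52 member peaks matched between the peak sets, coloured by gene, with the line of equality. Points follow the line from -3.59 and -3.26 at the *Nr5a2* peak 44.8 kb from the start to 5.92 and 6.10 at the *Tfcp2l1* peak 20.2 kb from the start.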

How the data were processed

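Omni-ATAC-seq was performed on 3 MEF and 3 mESC libraries, each sequenced on both platforms. The authors trimmed the reads (Illumina reads to the BGI read length), aligned them to GRCm38 (mm10) with Bowtie2, removed duplicates, low-quality and mitochondrial reads, and down-sampled each sample to 60000000 reads (MEF) or 45000000 (mESC). They called peaks per sample with MACS2 and extended the summits to a fixed width. Peaks that reached a score cut-off in more than a single sample of a cell type were kept and merged into a peak set per platform. The authors deposited raw counts of reads per peak for all 12 samples on both peak sets, summit lists whose score is a -log10 p-value, and a list of reproducible peaks per cell type and platform, of which the positions were used. Columns without a platform suffix were taken as Illumina.

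From these counts, CPM was computed over the reads in peaks of each set (15860985 to 21662775 per sample, so that a single read was worth at most 0.0630 CPM). Read numbers are not counts of independent molecules beyond duplicate removal. mESCs and MEFs were compared within a platform with edgeR 4.0.16 (R 4.3.3; TMM factors, filterByExpr, which removed no peak, quasi-likelihood F test, Benjamini-Hochberg adjusted p under 0.05 over all peaks or all gene windows). SE is the log2 fold change divided by the square root of F. Platforms were compared on the BGI peak set in a fit of all 12 samples, without and with the library as a block. Both samples of a library come from the same sorted cells, and their deviations from the group mean correlated with r from 0.489 to 0.727 (MEF) and from 0.453 to 0.653 (mESC). DESeq2 1.42.0, other scalings, filters, window sizes and left-out libraries were tried as alternatives. In simulated data with 200 changed features (log2 change of 1), the fits recovered 63% of peaks on BGI and 69% on Illumina, 99% and 98.5% of windows, and 62% of peaks between platforms in MEFs. Of the calls made there, 5.97%, 9.21%, 3.88%, 6.19% and 6.77% were false, for BGI and Illumina peaks, BGI and Illumina windows, and platforms in MEFs. The data differ from this setting, since 76825 of 91354 BGI peaks were called between the cell types. These rates therefore need not hold for the fits reported here.

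The genes and lists were chosen with earlier results of these data known. For each gene the rule named the highest promoter peak, the highest other peak in each cell type and the largest called change in each direction, and further peaks were named after their values were seen. Promoters are peaks within 1 kb of an annotated start (GENCODE M21), and distances run from the gene start to the peak centre.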

Additional observations from a re-analysis of the deposited data

How the results depend on the processing

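Member peaks called numbered 59 on BGI and 56 on Illumina, and leaving out each library in turn gave 59 to 60 and 56. Called window totals numbered 8, and 7 to 8 on Illumina without each library in turn, the *Tbx3* window being the one lost. A minimum log2 fold change of 1 left 52 and 45 member peaks and 7 and 6 windows called on BGI and Illumina, where 63.0% and 61.8% of all peaks and 20.1% and 19.2% of all windows passed it, and a 5 kb window left 7 windows on each. No paired analysis was possible because the MEF and mESC libraries share only the number 1 and are different cells. For the platforms, the 2 member peaks called in MEFs became 10 with the replicate block that pairs the samples of a library, 4 with the replicate block and a GC offset, and 0 with a 5 kb window, with RLE size factors and with DESeq2, where 25 of 63 had an adjusted p. Leaving out each library gave 0 to 1. In mESCs the count of 0 became 4 with the replicate block, all higher on BGI, and 1 with the replicate block and a GC offset, lower on BGI. The interaction had 0 calls at the members under each alternative run. The cause of these differences was not tested. The *Tbx3* peak at 15.8 kb, uncalled throughout, changed sign. On BGI its log2 fold change of -0.05 became 0.0878 with the down-sampled depths as library sizes and 0.0050 with both platforms summed, and ranged from -0.13 to 0.12 without each library in turn, turning positive without MEF replicate 4 or mESC replicate 3 (0.06). On Illumina its 0.03 became -0.0440 with both platforms summed, and ranged from -0.11 to 0.0892 without each library in turn, turning negative without MEF replicate 2 or mESC replicate 1 (-0.07). Depth limits low values most, since the lowest member mean in MEFs on BGI (0.390 CPM, *Prdm14* at 32.4 kb) rests on 7, 10 and 7 reads.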
